A study of Mus musculus with 28 samples.

Results

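The 40 genes described here encode factors that make ribosomes: subunits and initiation factors of RNA polymerase I, abundant nucleolar proteins, both classes of small nucleolar particle, and assembly factors of the small and the large ribosomal subunit. They were chosen by gene name, as rows present in both deposited count tables. All 40 were found among 43253 gene rows, all 40 were among the 17519 genes tested, and the lowest count of any of them in any library was 13.

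RNA polymerase I transcribes the ribosomal RNA precursor in the nucleolus, where small nucleolar particles direct its methylation and pseudouridylation and assembly factors fold and cut it into both subunits. The pathway is a large part of the cost of growth, and Myc factors are well known as activators of many of its genes. Spermatogonia divide and grow while they commit to differentiation under retinoic acid, and Stra8 is a retinoic acid-induced factor of germ cells needed for meiotic entry. The libraries were made from polyA RNA, so they measured mRNAs of the factors and not ribosomal RNA or ribosomes.

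Germ cells were sorted by a PIWIL2-eGFP reporter from testes of Stra8 knockout (KO) and Stra8 wild-type (WT) mice of a strain derived from C57BL/6 and 129s4/SvJae. Mice of both genotypes, including the 0 h groups, received WIN 18,446, an inhibitor of retinoic acid synthesis, for 7 days. They were then collected (0 h) or given retinoic acid and collected 12, 18, 48, 72, 96 or 120 h later. Each of the 14 groups had 2 libraries, and nothing in the labels says that these came from separate animals, so p-values measure the spread between libraries, which may be technical. The animals' age and the driver of the reporter are not stated in the sources used here. Stra8 itself had 0 to 62.1 CPM (read counts scaled to the library total) in KO libraries against 7.65 to 1042 CPM in WT libraries, and at each time its KO values lay below its WT values. The 62.1 CPM came from KO replicate 1 at 48 h, whose partner had 2.09 CPM, against 97.0 and 199 CPM in WT.

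Rrn3 and Mybbp1a are shown with their promoters, since they changed over the WT course and since both hold CACGTG, the letters of the canonical E-box that Myc and its partner Max bind. Each sequence runs 300 bases, 250 before to 50 after the RefSeq start of the gene (GRCm38.p6), 5′ to 3′ on the gene's strand, with CACGTG in capitals. The Rrn3 stretch is chr16:13780449-13780748 on the plus strand and has 2 matches, at bases 36 and 203. The Mybbp1a stretch is chr11:72441077-72441376 on the plus strand and has 1 match, at base 291.
Rrn3: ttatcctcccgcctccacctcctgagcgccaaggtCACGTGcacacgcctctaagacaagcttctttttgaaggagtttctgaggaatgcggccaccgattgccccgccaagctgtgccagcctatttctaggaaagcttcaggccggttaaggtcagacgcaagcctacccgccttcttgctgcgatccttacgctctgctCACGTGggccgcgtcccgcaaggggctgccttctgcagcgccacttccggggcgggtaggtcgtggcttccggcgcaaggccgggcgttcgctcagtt
Mybbp1a: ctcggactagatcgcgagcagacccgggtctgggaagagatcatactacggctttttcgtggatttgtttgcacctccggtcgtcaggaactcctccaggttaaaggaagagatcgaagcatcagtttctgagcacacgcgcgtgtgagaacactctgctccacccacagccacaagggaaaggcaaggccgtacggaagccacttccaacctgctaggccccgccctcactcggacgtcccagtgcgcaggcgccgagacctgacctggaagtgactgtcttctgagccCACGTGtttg
CACGTG reads the same on both strands. It was present in 6 of the 35 genes of the set with a promoter in the RefSeq table, or 17.1%, against 1320 of 11364 tested genes, or 11.6%. The other matches were in Nop2, Pes1, Utp20 and Wdr43, and Npm1, Rrs1, Rrp12, Fbl and Bop1 had no entry. A match is a description of the letters and not a bound site.

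KO libraries held 914126 to 9517360 reads in genes and WT libraries 5757921 to 10147341. KO replicate 2 at 72, 96 and 120 h had 1079696, 914126 and 1031189 reads, and these 3 shallow libraries correlated with their partners at 0.909, 0.905 and 0.917, against 0.959 to 0.980 for the other 11 pairs. In WT, replicate 1 is the library of the first count table and replicate 2 that of the second. The first table's 7 WT libraries had 1.98 to 3.06% mitochondrial reads, and the remaining 21 had 3.21 to 8.55%. These WT libraries also differed in the genes described here: 33 of 40 were higher in the second table's WT libraries, with a median ratio of 1.15 and a range of 0.769 (Polr1a) to 1.95 (Nhp2). Summed markers of germ cells were 4465 to 5281 CPM in KO and 3175 to 5691 CPM in WT, with 8 of 8 markers detected. Sertoli cell markers (12 genes) summed to 165 to 1069 CPM in KO and 116 to 345 CPM in WT, and peritubular myoid and stromal markers (7 genes) to 128 to 480 CPM in KO and 66.2 to 355 CPM in WT. Leydig cell markers (6 genes) summed to at most 15.7 CPM in KO and 9.16 CPM in WT, with Insl3 at 0 in all libraries. In sorted bulk cells, fewer cells of a type and less RNA per cell cannot be told apart.

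Together the 40 genes took about 1% of gene counts at every time in both genotypes. Their share in KO was 0.993 to 1.07% at 0 h, 1.07 to 1.15% at 12 h, 1.10 to 1.14% at 18 h, 1.23 to 1.24% at 48 h, 1.03 to 1.12% at 72 h, 1.00 to 1.05% at 96 h and 0.962 to 0.975% at 120 h. The WT share was 0.909 to 1.07% at 0 h, 0.917 to 1.03% at 12 h, 0.929 to 0.990% at 18 h, 0.972 to 1.15% at 48 h, 0.897 to 1.00% at 72 h, 0.910 to 1.10% at 96 h and 0.853 to 0.973% at 120 h. Both KO libraries at 12, 18, 48 and 72 h lay above both WT libraries of their time, and the genotypes overlapped at 0, 96 and 120 h. The abundant Ncl and Npm1 weigh on these sums. Without them the KO share was 0.805 to 0.812% at 0 h and 0.882 to 0.898% at 48 h. At 120 h it was then 0.787 to 0.798% in KO and 0.675 to 0.737% in WT, with no overlap. Between the highest and the lowest group mean over the 7 times, the genes moved by a median of 1.40-fold in KO and 1.45-fold in WT, less than the 1.57-fold in KO and 1.67-fold in WT over 6627 genes at least as abundant as the lowest of them. Npm1 in KO (2.30-fold) moved most, and its values split with the shallow libraries.

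**Figure D1:**
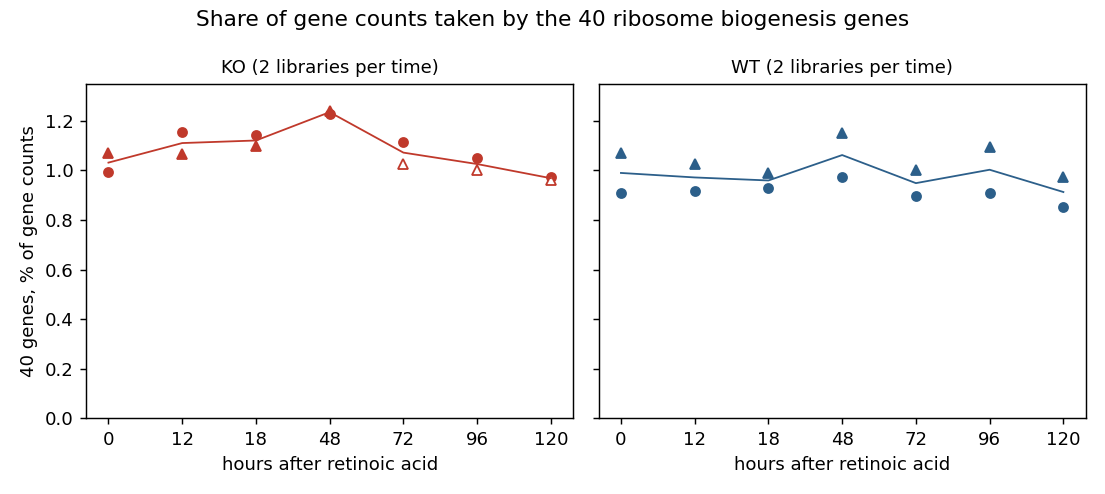
Share of all gene counts taken by the 40 genes (%, vertical axis) in each library over hours after retinoic acid (times evenly spaced, not to scale), KO on the left and WT on the right. Circles are replicate 1, triangles replicate 2, open triangles the 3 shallow KO libraries, and lines the means; KO is highest at 48 h (1.23 to 1.24%).

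Averaged over the 7 times, 15 of the 40 genes differed between KO and WT (edgeR, adjusted p under 0.05), the same share as the 37.5% of all genes tested. Direction was uneven: 13 were higher in KO and 2 lower, where 17.4% of all genes were higher and 20.1% lower. Rrp9 at 0.66 ± 0.09, Nhp2 at 0.60 ± 0.18, Ebna1bp2 at 0.38 ± 0.07 and Gar1 at 0.34 ± 0.11 had the largest rises as log2 fold changes (± is the standard error here and below, from 14 KO and 14 WT libraries), and Noc3l at -0.36 ± 0.07 and Polr1b at -0.15 ± 0.06 fell. The median over the 40 was 0.11, against -0.02 over all genes. Fits without the WT libraries of either count table had 1 library in each WT group, here and below. Their p-values and standard errors therefore rest on the spread of the KO pairs and not on that of WT. The number of genes that passed depends on the WT libraries used. Without the first table's WT libraries it was 7 (6 higher, 1 lower, background 27.0%) and the median 0.03, and without those of the second table it was 20 (background 42.9%) and the median 0.21. The 7 were Rrp9, Mybbp1a, Ebna1bp2, Nolc1, Heatr1 and Ubtf, higher in KO, and Noc3l, lower. Leaving out 1 library at a time gave 8 (without WT 48 h replicate 1) to 18 (without WT 96 h replicate 2). Rrp9, Mybbp1a, Ebna1bp2, Nolc1 and Noc3l passed in all 28 of those fits and in all 9 other settings tried.

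**Figure D2:**
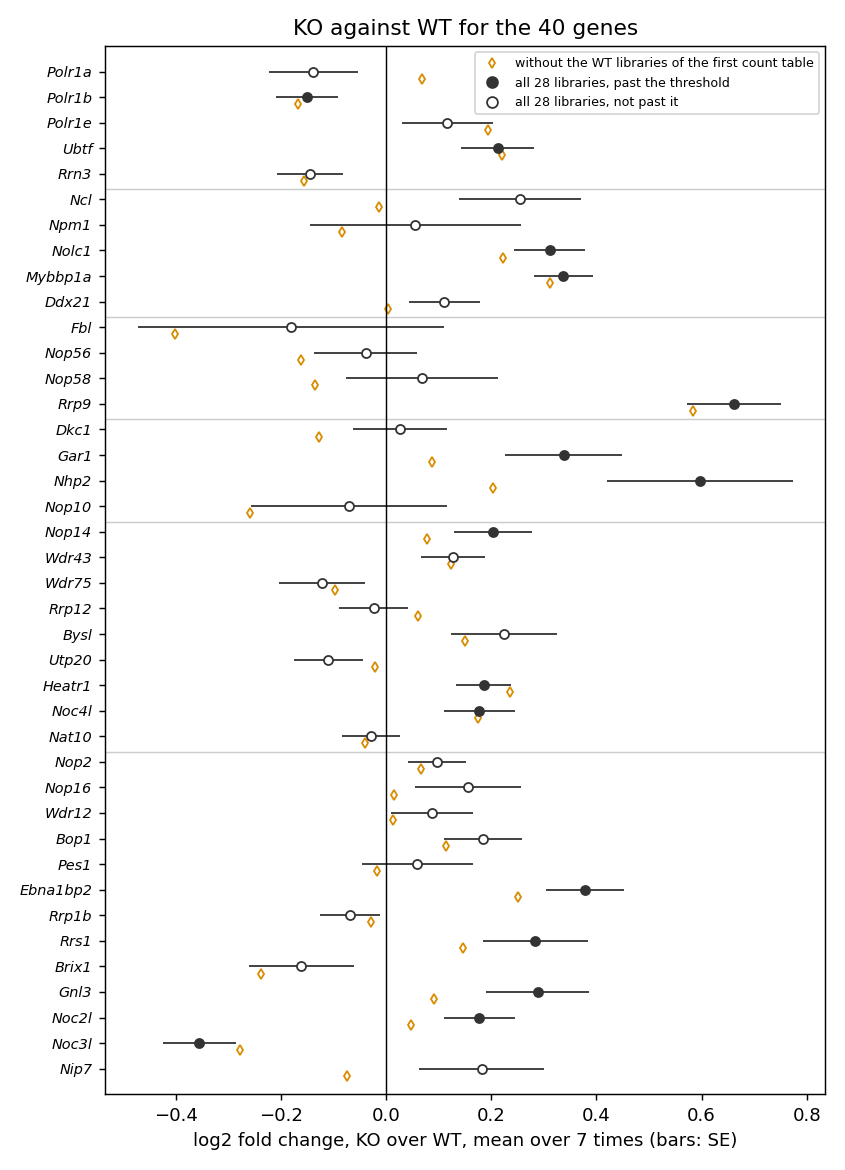
Log2 fold change, KO over WT, of each of the 40 genes as the mean over 7 times (horizontal axis, bars: standard error), in 6 role blocks. Filled circles passed the threshold (15 genes, 13 of them right of 0), and diamonds are the values without the first table's WT libraries, where 7 passed.

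At single times few of the genes passed. At 0, 12, 18 and 48 h the count in KO against WT was 0 by edgeR and 0 by DESeq2. By the same adjusted threshold 0.0%, 1.18%, 4.14% and 0.308% of all genes passed by edgeR. At an unadjusted p under 0.05 there were 3, 4, 5 and 5 of the 40, and the share of all genes at that cut is not given here. Most of the genes were on the KO side at 12, 18 and 48 h: 30, 35 and 32 of 40 had a positive log2 fold change, with medians of 0.18, 0.22 and 0.20, against 21 of 40 and 0.01 at 0 h. The share of positive values and the median over all genes at these times are not given here. Both KO libraries lay above both WT libraries for 11, 16, 22, 18, 16, 7 and 14 of the 40 over the 7 times, where the background was 21.7%, 22.5%, 19.4%, 20.5%, 25.3%, 22.3% and 30.3% of all genes. They lay below for 4, 1, 1, 5, 5, 4 and 6 of the 40, where it was 19.4%, 25.5%, 32.1%, 24.8%, 22.4%, 17.1% and 25.1%. The median at 18 h was 0.19 without the first table's WT libraries and 0.33 without those of the second. At 12 and 48 h the medians were 0.08 and 0.09 without the first and 0.26 and 0.28 without the second. At 72 h 1 gene passed (Rrp9, background 4.7%), at 96 h 1 (Noc3l, 4.47%) and at 120 h 5 (15.4%), of which 3 were higher in KO (8.54%) and 2 lower (6.88%). At 120 h Rrp9, Mybbp1a and Heatr1 were higher in KO, and Noc3l and Rrn3 lower.

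Marker sums differed between the genotypes at the same times. Undifferentiated spermatogonia markers (10 genes, all detected) were at 1103 to 1309 CPM in KO and 638 to 883 CPM in WT at 12 h, and at 1083 to 1090 CPM in KO and 522 to 571 CPM in WT at 18 h. At 48, 72 and 96 h both KO libraries of these markers also lay above both WT libraries. At 120 h these markers were at 1413 to 1532 CPM in KO and 518 to 902 CPM in WT, and at 0 h they overlapped. Stromal markers were higher in KO at every time, also at 0 h (358 to 480 CPM in KO and 255 to 355 CPM in WT). Sertoli cell markers were apart at 0 h too, at 177 to 287 CPM in KO and 116 to 160 CPM in WT. Germ cell markers at 120 h were at 4793 to 4938 CPM in KO and 3315 to 3378 CPM in WT. Sertoli cell markers then stood at 315 to 404 CPM in KO and 177 to 239 CPM in WT, and stromal markers at 375 to 388 CPM in KO and 113 CPM in both WT libraries. At 72 h, when Rrp9 passed, Sertoli cell markers were at 358 to 1069 CPM in KO and 159 to 286 CPM in WT. The part of these cells in the results was not tested.

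Each later time was also set against 0 h of the same genotype, so these comparisons share their 0 h libraries. In WT the number of the 40 genes that passed was 1 at 12 h (background 10.9%), 2 at 18 h (11.9%), 2 at 48 h (12.8%), 2 at 72 h (12.9%), 6 at 96 h (26.7%) and 7 at 120 h (28.9%), below the background each time. Same-numbered WT libraries deviated together, and with the replicate number as a block the counts were 3 (background 15.6%), 3 (16.5%), 4 (18.1%), 2 (18.1%), 8 (32.8%) and 11 (35.6%). The genes that passed only with the block were Nop56 and Rrn3 at 12 h, Nop16 at 18 h, Ncl and Noc2l at 48 h, Ncl and Wdr12 at 96 h, and Ebna1bp2, Nhp2, Nop14 and Rrs1 at 120 h. Between 120 h and 18 h in WT, Mybbp1a and Noc3l passed (background 16.5%), and with the block also Ddx21 (0.44), Nop14 (-0.48) and Wdr12 (-0.57), where the background was 22.5%. Over the whole WT course 7 changed (background 37.3%): Mybbp1a, Rrn3, Heatr1, Nat10, Nop14, Rrp1b and Noc3l. With the block there were 14 (48.1%), and leaving out 1 library gave 3 (without WT 0 h replicate 2) to 11 (without WT 96 h replicate 1). Without the first table's WT libraries there were 4 (28.2%), and without those of the second 2 (20.01%). In WT the undifferentiated spermatogonia markers were at 518 to 902 CPM at 120 h, against 1735 to 2266 CPM at 0 h, and the germ cell markers at 3315 to 3378 CPM, against 4365 to 5017 CPM at 0 h.

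In KO, Rrp1b and Rrn3 passed at 12 h (background 8.57%) and at 18 h (8.93%). None passed by edgeR or DESeq2 at 48, 72, 96 or 120 h, where 4.51%, 0.491%, 1.75% and 0.953% of all genes passed by edgeR. At an unadjusted p under 0.05 there were 6, 3, 1 and 2 of the 40, again without the share of all genes at that cut. Over the whole KO course Rrp1b alone passed (adjusted p = 0.00707, background 15.8%). The KO median against 0 h was 0.17, 0.14, 0.23, 0.08, 0.06 and -0.06 at 12, 18, 48, 72, 96 and 120 h. Between 120 h and 18 h in KO, Wdr12 (-0.82 ± 0.21) and Rrp1b (-0.57 ± 0.16) fell (background 11.0%), and 29 of the 40 had a negative value. Neither this count of negative values nor the KO medians have the value over all genes beside them. The genotype by time interaction gave 0 of the 40 by edgeR and by DESeq2 (background 0.108%), with Noc3l and Rrp1b at an unadjusted p under 0.05. KO change minus WT change was also tested at each time after the data were seen: of 240 values, 0 passed and 7 had an unadjusted p under 0.05, with the smallest adjusted p, 0.240, for Heatr1 at 120 h. With the expression filter, no difference in time course between the genotypes was therefore detected for any of the 40. With no filter, Fbl and Npm1 passed in the interaction.

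**Figure D3:**
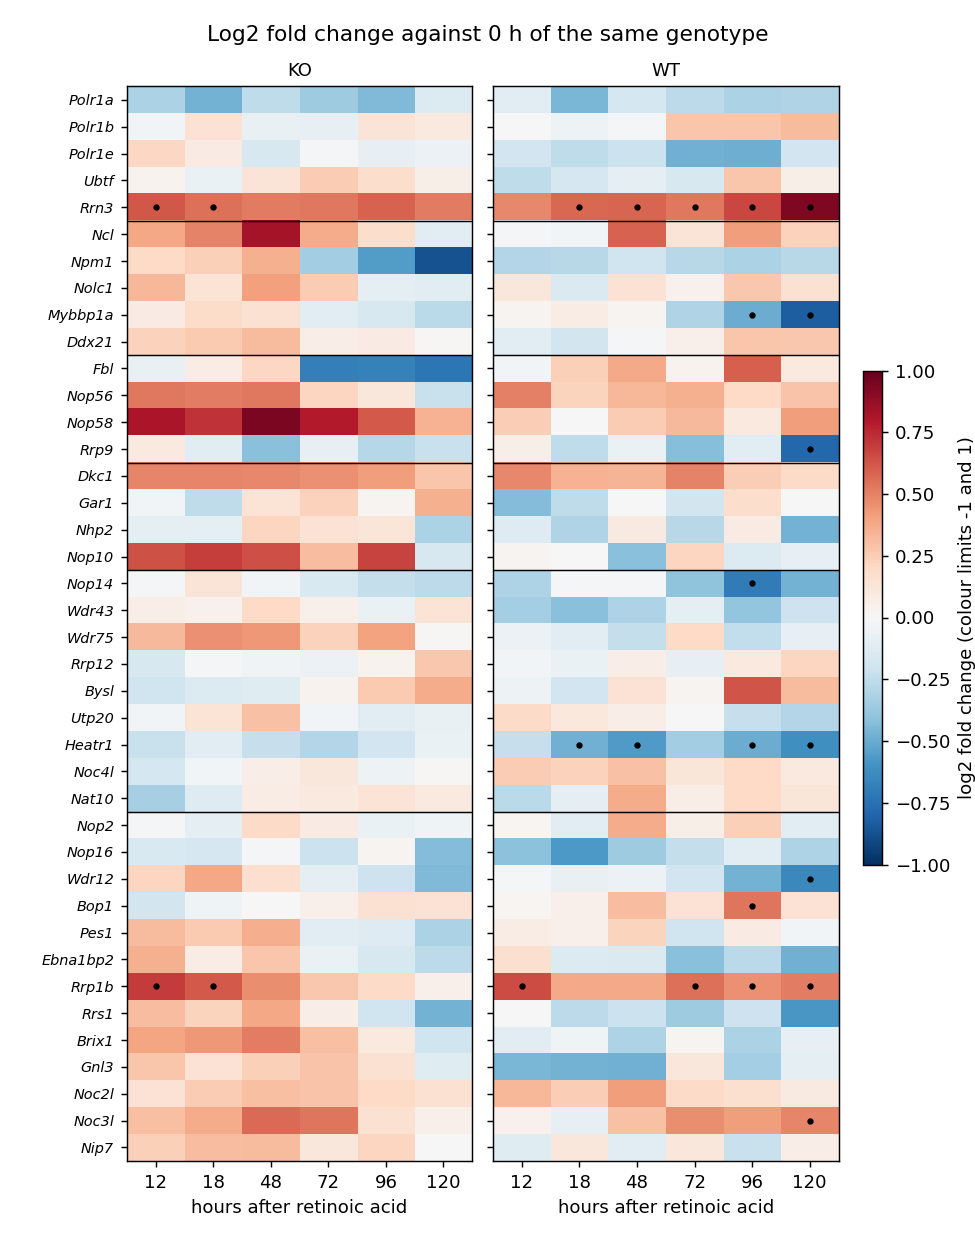
Log2 fold change against 0 h of the same genotype (colour, limits -1 and 1) for the 40 genes in 6 role blocks at 12 to 120 h, KO on the left and WT on the right. Dots mark values past the threshold; Rrn3 has dots at 12 and 18 h in KO and at 18 to 120 h in WT.

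Among the 5 RNA polymerase I genes, Rrn3 changed most over time. Rrn3 (TIF-IA; ENSMUSG00000022682.8, chr16:13780708-13814839) links the polymerase to the promoter of the ribosomal RNA genes. Below, each pair of CPM values is replicate 1 and replicate 2 of a time. Rrn3 had 91.3 and 92.0 CPM (0 h), 137 and 138 (12 h), 124 and 132 (18 h), 121 and 135 (48 h), 127 and 138 (72 h), 121 and 162 (96 h), and 119 and 150.3 (120 h) in KO. WT libraries held 84.6 and 106 CPM (0 h), 129 and 135 (12 h), 143 and 147 (18 h), 139 and 148 (48 h), 147 and 121 (72 h), 159 and 144 (96 h), and 165 and 184 (120 h). Every library after 0 h exceeded both 0 h libraries of its own genotype. Rrn3 rose in KO by 0.62 ± 0.17 at 12 h and 0.55 ± 0.17 at 18 h (adjusted p = 0.0213 and 0.0397), and each call was lost in all 4 fits that left out 1 of its libraries (adjusted p up to 0.161 and 0.213). KO at 120 h had 0.52 ± 0.17, which missed the threshold (adjusted p = 0.177). Rrn3 rose in WT by 0.58 ± 0.16 at 18 h, 0.58 ± 0.17 at 48 h, 0.53 ± 0.17 at 72 h, 0.67 ± 0.17 at 96 h and 0.93 ± 0.17 at 120 h, and its 12 h value of 0.48 missed the threshold (adjusted p = 0.0631). Only the 120 h rise (adjusted p = 2.17e-04) held without any 1 of its libraries, with an adjusted p of at most 0.0155, whereas the 18 to 96 h rises were each lost without WT 0 h replicate 1 (adjusted p up to 0.490). At 120 h Rrn3 was lower in KO than in WT, at -0.49 ± 0.17 (adjusted p = 0.0499). This call was lost without WT 120 h replicate 2 or without either KO library (adjusted p up to 0.267).

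Ubtf encodes UBF, which binds the ribosomal RNA genes and keeps them open for transcription (ENSMUSG00000020923.17, chr11:102304560-102319742). Ubtf had 329 and 389 CPM (0 h), 352 and 366 (12 h), 324 and 330.2 (18 h), 366 and 395 (48 h), 391 and 467 (72 h), 349 and 476 (96 h), and 315 and 447 (120 h) in KO. WT libraries held 371 and 296 CPM (0 h), 306 and 248 (12 h), 319.5 and 284 (18 h), 269 and 360.02 (48 h), 294 and 287 (72 h), 383 and 425 (96 h), and 299.7 and 367 (120 h). KO libraries exceeded the WT library of their time in 12 of 14 cases in each count table, and the mean over times was higher in KO by 0.21 ± 0.07 (adjusted p = 0.0203), a call lost in 9 of 28 fits without 1 library, with no filter and without the shallow libraries (adjusted p up to 0.132). Within a genotype, Ubtf passed at no time against 0 h.

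Polr1a and Polr1b encode the catalytic core of the polymerase, and Polr1e a smaller subunit. Polr1b had 151 and 119.6 CPM (0 h), 124 and 137 (12 h), 139 and 148 (18 h), 122 and 129 (48 h), 127 and 129 (72 h), 149.7 and 149.9 (96 h), and 152 and 141 (120 h) in KO. WT libraries held 129 and 149 CPM (0 h), 137 and 139.8 (12 h), 134 and 140.4 (18 h), 142 and 134 (48 h), 173 and 157 (72 h), 153 and 186 (96 h), and 170.3 and 164 (120 h). It was lower in KO as the mean over times (-0.15 ± 0.06, adjusted p = 0.0476), with both KO libraries below both WT libraries at 48, 72, 96 and 120 h, and 15 of 28 fits without 1 library lost the call. It was also lost in 8 of the 9 other settings, the replicate block excepted (adjusted p up to 0.246). Polr1a had 294 and 236 CPM (0 h), 191 and 225 (12 h), 176 and 191 (18 h), 224 and 209.6 (48 h), 190.1 and 226 (72 h), 167 and 233 (96 h), and 262 and 224 (120 h) in KO. WT libraries held 322 and 234 CPM (0 h), 310.2 and 199 (12 h), 237 and 176 (18 h), 273 and 217 (48 h), 260.2 and 189 (72 h), 221 and 225 (96 h), and 241 and 193 (120 h), higher in replicate 1 at 6 of the 7 times. Polr1e had 33.9 and 31.1 CPM (0 h), 40.3 and 33.0 (12 h), 38.0 and 27.8 (18 h), 26.7 and 30.2 (48 h), 32.6 and 31.5 (72 h), 30.3 and 31.7 (96 h), and 27.5 and 37.8 (120 h) in KO. WT libraries held 37.4 and 33.2 CPM (0 h), 33.7 and 27.4 (12 h), 27.9998 and 32.5 (18 h), 33.2 and 27.8 (48 h), 28.8 and 20.5 (72 h), 26.4 and 23.8 (96 h), and 27.5 and 31.8 (120 h). With all 28 libraries and the expression filter, neither Polr1a nor Polr1e passed in any comparison. Without the second table's WT libraries Polr1a was at -0.32 in KO over WT as the mean over times. Their libraries overlapped between the genotypes at all 7 times for Polr1a and at 5 of 7 for Polr1e.

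**Figure D4:**
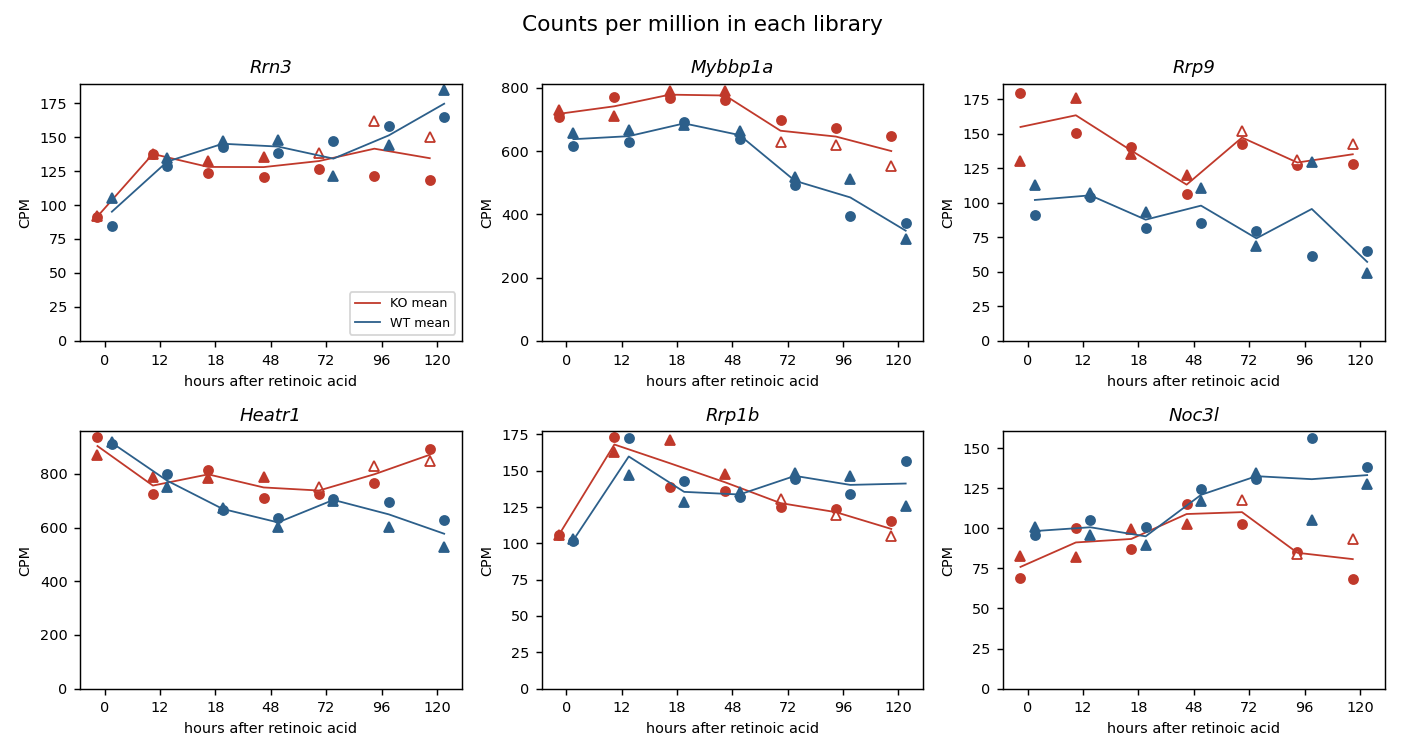
CPM (vertical axes from 0) of Rrn3, Mybbp1a, Rrp9, Heatr1, Rrp1b and Noc3l in each library over hours after retinoic acid (evenly spaced, not to scale). KO is red and WT blue, circles are replicate 1, triangles replicate 2, open triangles the 3 shallow KO libraries and lines the means; at 120 h Mybbp1a stands at 554 and 646 CPM in KO and 324 and 373 CPM in WT.

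Of the 5 abundant nucleolar proteins, Mybbp1a had the clearest change. It encodes a Myb-binding protein of the nucleolus that has been described as a repressor of ribosomal RNA gene transcription (ENSMUSG00000040463.16, chr11:72441355-72451768). Mybbp1a had 707 and 729 CPM (0 h), 771 and 712 (12 h), 768 and 789 (18 h), 761 and 789.8 (48 h), 699.7 and 629 (72 h), 673 and 619 (96 h), and 646 and 554 (120 h) in KO. WT libraries held 617 and 658 CPM (0 h), 628 and 667 (12 h), 693 and 682 (18 h), 639 and 663 (48 h), 494 and 518 (72 h), 395 and 512 (96 h), and 373 and 324 (120 h). All 14 KO libraries exceeded both WT libraries of their time. The mean over times was higher in KO by 0.34 ± 0.06 (adjusted p = 6.54e-05). In WT Mybbp1a fell, at -0.50 ± 0.15 at 96 h and -0.82 ± 0.15 at 120 h (adjusted p = 0.0155 and 2.65e-04), and between 120 h and 18 h, at -0.90 ± 0.15 (adjusted p = 2.60e-04). Both 120 h falls held without any 1 library and in all 5 other settings, while the 96 h fall was lost without WT 96 h replicate 1 or WT 0 h replicate 2 (adjusted p up to 0.162). KO at 120 h stood at -0.27 ± 0.15 against 0 h and did not pass. KO exceeded WT at 120 h by 0.70 ± 0.15 (adjusted p = 0.00353), a call lost without WT 120 h replicate 2 or KO 120 h replicate 1 (adjusted p up to 0.159). KO change minus WT change at 120 h was 0.55 ± 0.21 (adjusted p = 0.274).

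Nolc1, a chaperone of small nucleolar particles, was higher in KO as the mean over times by 0.31 ± 0.07 (adjusted p = 9.39e-04), with KO libraries above the first table's WT library in 14 of 14 cases and above the second's in 11. Ncl (nucleolin) and Npm1 (nucleophosmin), which bind pre-ribosomal RNA and proteins, and Ddx21, an RNA helicase, did not pass in this comparison. Ncl was at 0.25 ± 0.12 (adjusted p = 0.0916). It passed with recovered reads (0.29, adjusted p = 0.0446) and with the replicate block (0.29, adjusted p = 4.17e-04). Its value was -0.01 without the first table's WT libraries and 0.58 without those of the second. Ddx21 had 365 and 436 CPM (0 h), 479 and 436 (12 h), 469 and 447 (18 h), 495 and 475 (48 h), 458 and 376 (72 h), 442 and 411 (96 h), and 393 and 423 (120 h) in KO. WT libraries held 326 and 449 CPM (0 h), 328 and 385 (12 h), 335 and 363 (18 h), 351 and 424 (48 h), 389 and 398 (72 h), 443 and 499 (96 h), and 394 and 509 (120 h). Both KO libraries exceeded both WT libraries at 12, 18 and 48 h and at no other time. Ncl had 1161 and 1621 CPM (0 h), 1890.2 and 1658 (12 h), 1987 and 1746 (18 h), 2223 and 2583 (48 h), 1853 and 1738 (72 h), 1439 and 1734 (96 h), and 1214 and 1388 (120 h) in KO. WT libraries held 901 and 1565 CPM (0 h), 937 and 1494 (12 h), 1059.6 and 1423 (18 h), 1298 and 2454 (48 h), 1146 and 1500.3 (72 h), 1319 and 2011 (96 h), and 1159.6 and 1631 (120 h), higher in replicate 2 at every time. Both genotypes were highest at 48 h in Ncl, by 0.84 ± 0.31 over 0 h in KO (adjusted p = 0.131) and by 0.59 ± 0.31 in WT (adjusted p = 0.238). With the replicate block both rises passed (adjusted p = 0.00170 in KO and 0.0109 in WT), as did Ncl over each course. Same-numbered KO libraries deviated together less than those of WT.

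Nhp2, Ncl, Fbl and Npm1 differed widely between libraries of the same group. Fbl, the methyltransferase of box C/D particles, had 30.6, 39.4 and 35.9 CPM in the shallow KO libraries at 72, 96 and 120 h, against 213, 204 and 201 CPM in the other KO library of the same times. Npm1 had 343, 263 and 245 CPM in the shallow libraries, against 962, 858 and 664 CPM in their partners. The deposited CPM tables hold other values for KO at these times, which match no count column: 167, 163 and 169.8 CPM for Fbl and 775, 666 and 659 CPM for Npm1. With all libraries and the expression filter neither gene passed in any comparison. With no filter, Fbl passed between KO and WT at 96 h and Npm1 at 120 h, and both passed between 120 h and 18 h in KO, over the KO course and in the interaction. Npm1 also passed with no filter in KO between 120 h and 0 h. As the mean over times Npm1 was at 0.06 ± 0.20 in KO over WT with all libraries, 0.27 ± 0.08 with recovered reads (adjusted p = 0.00681) and 0.31 ± 0.09 without the shallow libraries (adjusted p = 0.00895). Both genes share a stretch of at least 200 bases, at 95% identity or more, with other genes of the count table. The sharing genes were Gm5812 and Tulp4 for Fbl, with 16.2% and 66.1% as many reads as Fbl, and Gm14681 and Gm5611 for Npm1, with 3.18% and 1.09%. The same held for Nop56 (Gm27219 and Gm9432, 1.503% and 0.467%) and Pes1 (Gm5472, 0.834%). Wdr12 shares such stretches with 5 genes, each over at most 13.8% of its transcript. How reads in these stretches were counted is not given in the sources used here.

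**Figure D5:**
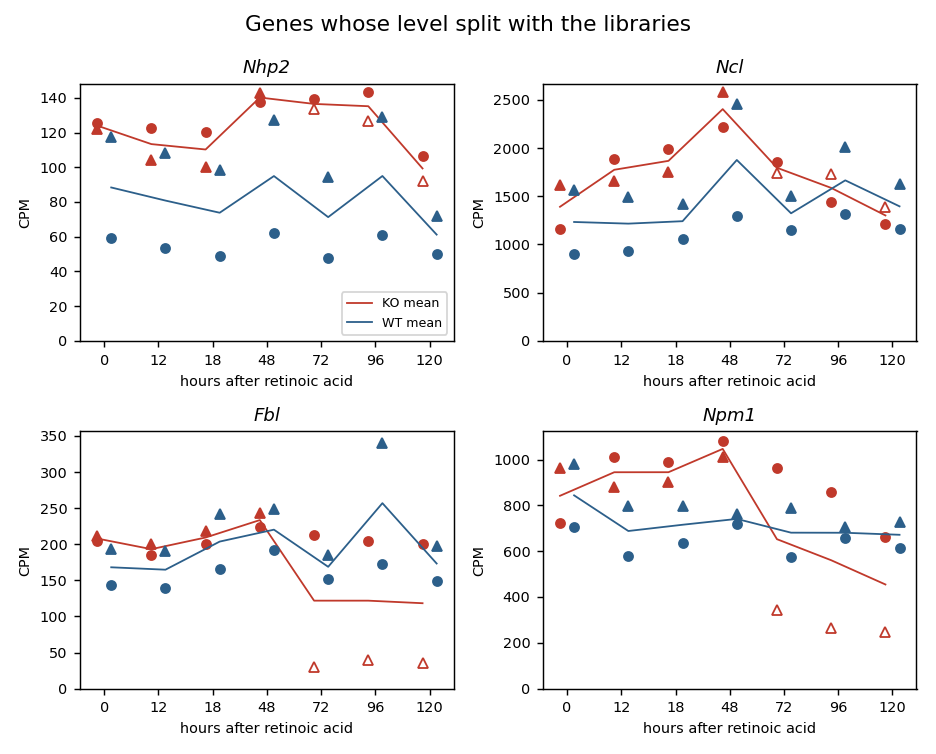
CPM (vertical axes from 0) of Nhp2, Ncl, Fbl and Npm1 in each library over hours after retinoic acid (evenly spaced, not to scale), KO red and WT blue. Circles are replicate 1, triangles replicate 2, open triangles the 3 shallow KO libraries and lines the means; WT replicate 2 exceeds WT replicate 1 throughout, and Fbl in the shallow KO libraries is at 30.6 to 39.4 CPM.

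In the box C/D group, Rrp9 had the largest difference between the genotypes of all 40 genes. It encodes a protein of the U3 particle, which takes part in the first cuts of the precursor (ENSMUSG00000041506.15, chr9:106475963-106485424). Rrp9 had 179.9 and 130.1 CPM (0 h), 151 and 176 (12 h), 141 and 135 (18 h), 106 and 119.9 (48 h), 143 and 152 (72 h), 127 and 131 (96 h), and 128 and 143 (120 h) in KO. WT libraries held 91.5 and 113 CPM (0 h), 104 and 107 (12 h), 81.9 and 93.7 (18 h), 85.6 and 110.4 (48 h), 79.8 and 68.9 (72 h), 61.4 and 129.7 (96 h), and 65.0 and 49.5 (120 h). Every KO library exceeded the first table's WT library of its time, and 12 of 14 exceeded the second's. The mean over times was higher in KO by 0.66 ± 0.09 (adjusted p = 5.98e-06). At 72 h the difference was 0.92 ± 0.24 (adjusted p = 0.0315), lost without any 1 of the 4 libraries (adjusted p up to 0.146), and at 120 h 1.14 ± 0.24 (adjusted p = 0.00332), lost without WT 120 h replicate 2 (adjusted p = 0.0796). In WT Rrp9 fell, at -0.79 ± 0.24 at 120 h (adjusted p = 0.0151), a call lost without WT 0 h replicate 2 or WT 120 h replicate 2 (adjusted p up to 0.149).

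Nop56 and Nop58 form the core of the same particles with Fbl. Nop56 had 223 and 216 CPM (0 h), 339 and 278 (12 h), 303 and 295 (18 h), 344 and 272 (48 h), 306 and 198 (72 h), 287 and 184 (96 h), and 224 and 151 (120 h) in KO. WT libraries held 163 and 268 CPM (0 h), 289 and 321 (12 h), 246 and 271 (18 h), 257 and 289 (48 h), 239 and 303 (72 h), 229 and 268 (96 h), and 241 and 266 (120 h). Its values at 12 h were 0.52 ± 0.26 over 0 h in KO (adjusted p = 0.236) and 0.50 ± 0.26 in WT (adjusted p = 0.2495, past the threshold with the block). Nop58 passed in no comparison with the filter, though with no filter it passed in KO at 12, 18 and 48 h against 0 h and over the KO course. Its KO value at 48 h was 0.94 ± 0.39 over 0 h (adjusted p = 0.185).

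The box H/ACA particle, which makes pseudouridines and also binds telomerase RNA, has Dkc1 as its enzyme and Gar1, Nhp2 and Nop10 as partners. Nhp2 (ENSMUSG00000001056.3, chr11:51619735-51623714) had 126 and 122 CPM (0 h), 123 and 104 (12 h), 120.2 and 100.3 (18 h), 137 and 143 (48 h), 139.6 and 133 (72 h), 143 and 127 (96 h), and 106 and 92.1 (120 h) in KO. WT libraries held 59.1 and 118 CPM (0 h), 53.2 and 108 (12 h), 49.0 and 98.6 (18 h), 62.4 and 127 (48 h), 48.0 and 94.6 (72 h), 60.9 and 129 (96 h), and 50.3 and 72.2 (120 h). The second table's WT library was higher at every time. The KO rise of 0.60 ± 0.18 (adjusted p = 0.0141) was 0.20 without the first table's WT libraries. Gar1 had 70.2 and 74.8 CPM (0 h), 72.9 and 66.0 (12 h), 57.7 and 58.5 (18 h), 73.6 and 81.6 (48 h), 74.5 and 98.2 (72 h), 67.2 and 84.2 (96 h), and 77.3 and 114 (120 h) in KO. WT libraries held 58.6 and 67.7 CPM (0 h), 39.1 and 54.1 (12 h), 45.7 and 62.7 (18 h), 50.6 and 76.0 (48 h), 44.4 and 63.9 (72 h), 47.7 and 96.9 (96 h), and 46.7 and 74.6 (120 h). Its KO rise of 0.34 ± 0.11 (adjusted p = 0.0203) was 0.09 without the first table's WT libraries, and it was also lost without the shallow KO libraries and without KO 48 h replicate 2 (adjusted p = 0.0552). Dkc1 had 80.5 and 103 CPM (0 h), 139 and 111 (12 h), 129 and 115 (18 h), 128 and 119.9 (48 h), 127 and 122 (72 h), 114 and 135 (96 h), and 102 and 123 (120 h) in KO. WT libraries held 74.0 and 111 CPM (0 h), 105 and 152 (12 h), 116 and 124 (18 h), 106 and 128 (48 h), 104 and 151 (72 h), 115 and 104 (96 h), and 82.5 and 120.3 (120 h). It stood 0.49 ± 0.23 above 0 h in KO (adjusted p = 0.217) and 0.48 ± 0.23 above it in WT (adjusted p = 0.212) at 12 h, and passed in no comparison with all libraries. Without the second table's WT libraries Dkc1 was at 0.20 in KO over WT as the mean over times. Nop10 passed in none.

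Of the 9 small subunit assembly genes, Heatr1 changed over the WT course. It encodes the counterpart of yeast Utp10, a large scaffold of the complex that processes the small subunit's RNA (ENSMUSG00000050244.9, chr13:12395027-12440289). Heatr1 had 938 and 869.6 CPM (0 h), 724 and 789 (12 h), 813 and 783 (18 h), 712 and 787 (48 h), 726 and 750.2 (72 h), 767 and 830.3 (96 h), and 893 and 849.5 (120 h) in KO. WT libraries held 911 and 919.8 CPM (0 h), 799 and 749.8 (12 h), 667 and 672 (18 h), 636 and 602 (48 h), 707 and 699 (72 h), 696 and 603 (96 h), and 628 and 527 (120 h). The 0 h libraries were the highest of WT, and all later WT libraries lay below them. Heatr1 fell in WT, at -0.48 ± 0.14 at 18 h, -0.57 ± 0.14 at 48 h, -0.50 ± 0.14 at 96 h and -0.61 ± 0.14 at 120 h (adjusted p = 0.0233, 0.00831, 0.0103 and 0.00190). The 120 h fall held without any 1 library (adjusted p at most 0.0314), and the earlier ones were each lost without WT 0 h replicate 2, among others (adjusted p up to 0.154). KO at 120 h was at -0.07 against 0 h. KO exceeded WT by 0.19 ± 0.05 as the mean over times (adjusted p = 0.00787), lost without KO 120 h replicate 1, without KO 48 h replicate 2, with no filter and without the second table's WT libraries (adjusted p up to 0.101). At 120 h the difference was 0.50 ± 0.14 (adjusted p = 0.0177), lost without WT 120 h replicate 2 or KO 120 h replicate 1 (adjusted p up to 0.254).

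Nop14 is a further part of the small subunit complex. Nop14 had 231 and 259.7 CPM (0 h), 242 and 230.3 (12 h), 260.2 and 250.5 (18 h), 251 and 218 (48 h), 217 and 225 (72 h), 231 and 185 (96 h), and 184 and 233 (120 h) in KO. WT libraries held 221 and 257 CPM (0 h), 187 and 198 (12 h), 235 and 246 (18 h), 207 and 266 (48 h), 162 and 189.9 (72 h), 129.6 and 166 (96 h), and 129.6 and 200.4 (120 h). It fell in WT, at -0.70 ± 0.20 at 96 h (adjusted p = 0.0107), lost without WT 96 h replicate 1 or WT 0 h replicate 2 (adjusted p up to 0.0997). Over the mean of times it was higher in KO by 0.20 ± 0.07 (adjusted p = 0.0347), as was Noc4l by 0.18 ± 0.07 (adjusted p = 0.0434), but 22 and 26 of the 28 fits without 1 library, and 2 and 4 of the 9 other settings, lost these calls. An antisense gene overlaps 5.27% of the exons of Nop14, and the use of strand in counting is not given in the sources used here. Wdr43, Wdr75, Utp20, Rrp12 and Bysl, whose exons overlap those of Ccnd3 over 9.37% of their length, passed in no comparison with all libraries and the filter. Without the second table's WT libraries, Bysl was at 0.32 and Utp20 at -0.20 in KO over WT as the mean over times. Wdr43 passed in WT at 96 h without the shallow libraries or with recovered reads, and Wdr75 without the first table's WT libraries. Nat10, an RNA acetyltransferase, passed only over the whole WT course (adjusted p = 0.0199).

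Of the 13 large subunit assembly genes, Rrp1b passed over both courses and Noc3l over the WT course. Rrp1b, a counterpart of yeast Rrp1 (ENSMUSG00000058392.13, chr17:32036100-32062865), had 106 and 106 CPM (0 h), 173 and 163 (12 h), 139 and 171 (18 h), 136 and 148 (48 h), 125 and 131 (72 h), 124 and 119 (96 h), and 115 and 105 (120 h) in KO. WT libraries held 101 and 103 CPM (0 h), 173 and 147 (12 h), 143 and 128 (18 h), 132 and 135 (48 h), 144 and 148 (72 h), 134 and 147 (96 h), and 157 and 125 (120 h). All 4 libraries at 12 h exceeded all 4 at 0 h. The rise at 12 h was 0.70 ± 0.15 in KO (adjusted p = 0.00504) and 0.66 ± 0.15 in WT (adjusted p = 0.00545), each lost without replicate 1 of the 0 h or 12 h libraries of that genotype (adjusted p up to 0.0921 and 0.140). In KO it was 0.62 ± 0.15 at 18 h (adjusted p = 0.0124) and then passed at no later time. In WT it also passed at 72, 96 and 120 h, with 0.55 ± 0.15, 0.45 ± 0.15 and 0.52 ± 0.15. The later calls of both genotypes were each lost in 3 or 4 of 4 fits without 1 library (adjusted p up to 0.241).

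Noc3l, a counterpart of yeast Noc3 (ENSMUSG00000024999.7, chr19:38788128-38819237), was the clearest gene lower in KO. Noc3l had 69.2 and 82.7 CPM (0 h), 100.2 and 82.3 (12 h), 87.4 and 99.4 (18 h), 115 and 103 (48 h), 103 and 118 (72 h), 85.3 and 84.2 (96 h), and 68.5 and 93.1 (120 h) in KO. WT libraries held 95.8 and 101 CPM (0 h), 105 and 96.1 (12 h), 101 and 89.5 (18 h), 124 and 117 (48 h), 131 and 134 (72 h), 156 and 105 (96 h), and 139 and 128 (120 h). No KO library exceeded the first table's WT library of its time, and 2 of 14 exceeded the second's. The mean over times was lower in KO, at -0.36 ± 0.07 (adjusted p = 3.65e-04). At 96 h the difference was -0.66 ± 0.19 (adjusted p = 0.0427), lost in 3 of 4 fits without 1 library (WT replicate 1 or either KO library, adjusted p up to 0.365). At 120 h it was -0.84 ± 0.19 (adjusted p = 0.00469), lost without KO 120 h replicate 1 (adjusted p = 0.0941). In WT Noc3l rose by 0.49 ± 0.18 at 120 h against 0 h and by 0.57 ± 0.18 against 18 h (adjusted p = 0.0452 and 0.0329), and each call was lost without any 1 of its libraries (adjusted p up to 0.263).

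Ebna1bp2, whose yeast counterpart Ebp2 is needed for the large subunit's RNA, was higher in KO as the mean over times by 0.38 ± 0.07 (adjusted p = 3.55e-04), and KO libraries exceeded the WT library of their time in 14 of 14 cases in the first table and 13 in the second. Ebna1bp2 had 97.2 and 129 CPM (0 h), 146 and 135 (12 h), 114 and 112 (18 h), 128 and 137 (48 h), 106 and 109 (72 h), 107 and 95.2 (96 h), and 90.2 and 101 (120 h) in KO. WT libraries held 89.1 and 108 CPM (0 h), 102 and 118 (12 h), 80.7 and 103 (18 h), 72.1 and 107 (48 h), 72.5 and 71.8 (72 h), 69.8 and 94.7 (96 h), and 65.8 and 70.5 (120 h). Wdr12, which acts in a complex with Pes1 and Bop1, had 65.9 and 79.7 CPM (0 h), 86.9 and 77.3 (12 h), 97.7 and 82.8 (18 h), 81.8 and 76.6 (48 h), 76.9 and 55.6 (72 h), 72.7 and 49.2 (96 h), and 52.9 and 55.3 (120 h) in KO. WT libraries held 75.4 and 79.8 CPM (0 h), 69.1 and 83.6 (12 h), 71.8 and 78.7 (18 h), 73.4 and 76.3 (48 h), 57.5 and 75.4 (72 h), 55.9 and 55.7 (96 h), and 43.7 and 51.7 (120 h). In WT it fell, at -0.64 ± 0.20 at 120 h (adjusted p = 0.0191), lost without WT 120 h replicate 1 or WT 0 h replicate 2 (adjusted p up to 0.132). Its fall in KO between 120 h and 18 h (adjusted p = 0.0146) was lost in 3 of 4 fits without 1 library (adjusted p up to 0.132), and that of Rrp1b (adjusted p = 0.0206) without replicate 2 of either time (adjusted p up to 0.177). Bop1 rose in WT by 0.53 ± 0.19 at 96 h alone, where its libraries held 157 and 253 CPM against 132 and 149.5 CPM at 0 h, and the call was lost in 3 of 4 fits (adjusted p up to 0.790). As the mean over times Bop1 was at 0.18 ± 0.07 in KO over WT (adjusted p = 0.0516). It passed with recovered reads (adjusted p = 0.0239) and with the replicate block (adjusted p = 0.0277). Its value was 0.11 without the first table's WT libraries and 0.26 without those of the second. Gnl3 (nucleostemin), Rrs1 and Noc2l were higher in KO over the mean of times, by 0.29 ± 0.10, 0.28 ± 0.10 and 0.18 ± 0.07, and 8, 15 and 23 of 28 fits without 1 library, and 2, 1 and 3 of the 9 other settings, lost these calls. Exons of Noc2l overlap those of Samd11 over 20.9% of their length. Pes1, Brix1, Nip7, Nop2 and Nop16 passed in no comparison of the main edgeR fit, with all libraries and the filter and without the replicate block. With the block, Nip7 passed as the mean over times, higher in KO, and Nop16 passed in WT at 18 h against 0 h. As the mean over times Pes1 was at 0.06 ± 0.11 in KO over WT with all libraries, 0.19 ± 0.06 with recovered reads (adjusted p = 0.0223) and 0.22 ± 0.07 without the shallow libraries (adjusted p = 0.0226). Nop16 was higher in KO by 0.27 without the shallow libraries, and Nip7 by 0.50 without the second table's WT libraries. Brix1 passed between KO and WT at 120 h without the first table's WT libraries, and Nop2 passed over the WT course with the replicate block, library totals, DESeq2 or recovered reads.

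Another 87 genes of the same pathway (10 of RNA polymerase I, 40 small subunit and 37 large subunit factors) were listed, and 85 were tested. As the mean over times 24 were higher in KO and 6 lower, where 17.4% of all genes were higher and 20.1% lower. Without the first table's WT libraries 12 were higher and 6 lower (background 27.0% in either direction), and without those of the second 32 were higher and 8 lower (42.9%). The largest rises were in Imp3 (0.73 ± 0.19), a U3 particle protein, Ddx27 (0.57 ± 0.07), an RNA helicase, and Polr1c (0.55 ± 0.08), a subunit shared by RNA polymerases I and III. Taf1b (-0.49 ± 0.11), part of the polymerase I promoter factor, Utp18 (-0.36 ± 0.11) and Ddx55 (-0.33 ± 0.09) were lower. In WT at 120 h 17 of the 85 passed, where the background was 28.9%, and without the first table's WT libraries 11 did (19.3%). Of the 17, 6 rose and 11 fell, led by Ddx55 (1.65 ± 0.23), Nle1 (0.98 ± 0.24) and Tbl3 (0.95 ± 0.19) among those that rose and Utp23 (-1.57 ± 0.44), Gnl3l (-1.28 ± 0.29) and Urb2 (-1.19 ± 0.20) among those that fell. At 18 h 68 of the 85 had a positive log2 fold change in KO over WT, with a median of 0.20, and 0 passed by edgeR (6 at an unadjusted p under 0.05). The share of all genes with a positive value is not given here.

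Of 11 listed factors of the Myc network, Mycn alone is described in full beside these genes, and it does not stand for the network. Myc itself had 0 to 1.37 CPM in all libraries. Mycl had 46.6 and 58.1 CPM in KO and 18.8 and 27.1 CPM in WT at 12 h. At 18 h Mycl had 42.2 and 34.6 CPM in KO and 20.1 and 21.3 CPM in WT. Mxd4 went the other way at 12 h, with 70.2 and 83.4 CPM in KO and 91.9 and 107 CPM in WT. Mycn had 78.1 and 90.0 CPM (0 h), 94.6 and 93.8 (12 h), 109.6 and 113 (18 h), 60.5 and 74.5 (48 h), 66.2 and 51.9 (72 h), 73.6 and 68.9 (96 h), and 65.2 and 83.4 (120 h) in KO. WT libraries held 89.1 and 77.4 CPM (0 h), 25.2 and 31.0 (12 h), 25.4 and 24.1 (18 h), 57.0 and 45.9 (48 h), 49.3 and 63.5 (72 h), 54.7 and 52.1 (96 h), and 54.3 and 43.3 (120 h). At 12 and 18 h both KO libraries exceeded both WT libraries, by 1.74 ± 0.20 and 2.24 ± 0.20 on the log2 scale (adjusted p = 5.02e-05 and 8.62e-07), and WT fell, at -1.56 ± 0.19 and -1.78 ± 0.19 against 0 h. KO change minus WT change was 1.76 ± 0.27 and 2.25 ± 0.27 (adjusted p = 0.0191 and 3.32e-04), in a test added after the values were seen, and it passed at no later time. At the same 12 and 18 h, 0 of the 40 ribosome genes passed between the genotypes (background 1.18% and 4.14%), and their medians were 0.18 and 0.22. With the replicate block Gnl3, Ncl and Nhp2 passed at 12 h, and Ncl, Nhp2, Nolc1 and Rrp9 at 18 h, all higher in KO. No relation between Mycn and these genes was tested.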

How the data were processed

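Germ cells sorted for the PIWIL2-eGFP reporter were profiled by polyA RNA sequencing on an Ion Proton sequencer, per the labels' protocols, in 28 libraries of 14 groups. The submitters' processing notes name TopHat, Bowtie, Cufflinks and the build mm10. No counting program, and no setting for strand, is named in the sources used here. Raw read counts per gene, deposited by the authors, stand in a pair of tables with 1 library of each group, called the first and the second count table. The deposited tables named FPKM, taken as such when the tests were planned, held CPM: 25 of 28 columns equalled a count column over its total within 0.001 CPM, the 14 WT columns under the same number and 11 KO columns under the other number. The remaining 3, KO at 72, 96 and 120 h, matched none. Their values gave whole reads (100% within 0.1 read) and totals of 4479729, 4190650 and 4122223, used as the recovered reads alternative. Which numbering and which values are right for KO was not given. Libraries are numbered here as in the count tables, and 27 date-like rows of 43280 were left out. Reads outside genes were listed for the first table's WT libraries only (27.1 to 33.1% without a feature, 14.3 to 16.2% not uniquely aligned).

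CPM values are counts per library total in genes. The quasi-likelihood test of edgeR 4.0.16 (R 4.3.3) was run on the counts (TMM scaling, default expression filter, 14 group means, robust fit), with Benjamini-Hochberg adjustment over 17519 genes and a threshold of 0.05. Alternatives were other scalings, no filter, DESeq2 1.42.0, the replicate number as a block, leaving out libraries, and recovered reads. The fits without the WT libraries of either count table and the tests of KO change minus WT change were added after seeing the data. Such fits left 1 library in each WT group, so their estimate of spread came from the KO pairs. Same-numbered WT libraries deviated together (21 of 21 correlations of deviations over 0.1, median 0.407), so the block is given beside WT results. Same-numbered KO libraries did so less, with 7 of 21 over 0.1, a median of 0.051 and a highest value of 0.567. The scripts were tested on simulated counts. Gene positions are those of GENCODE for GRCm38, shared stretches were found with BLAST 2.17.0, and promoters are those of RefSeq (GRCm38.p6). The 40 genes and all gene lists were chosen with earlier results of these data known. Values in every library were given for the polymerase I genes, for the genes of each role with the largest WT or genotype change, and for the 3 with the smallest interaction p (Noc3l, Rrp1b, Ddx21). Ncl, Ebna1bp2, Fbl, Npm1 and Bop1 values were added after they were seen.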

Additional observations from a re-analysis of the deposited data

Results flagged for a closer look

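For 4 genes both KO libraries moved one way against both 0 h libraries of KO and both WT libraries the other way; none of the differences in change passed the test. Nop10 at 48 h had 38.1 and 32.3 CPM in KO, against 19.2 and 27.6 CPM at 0 h, and 23.6 and 25.6 CPM in WT, against 27.4 and 38.1 CPM at 0 h. Its KO change exceeded the WT change by 1.07 ± 0.69 on the log2 scale (adjusted p = 0.838). Wdr75 at 48 h had 217 and 189 CPM in KO, against 132 and 179 CPM at 0 h, and 191 and 165 CPM in WT, against 198 and 220.2 CPM at 0 h, a difference in change of 0.67 ± 0.31 (adjusted p = 0.822). Brix1 at 48 h had 82.2 and 66.1 CPM in KO, against 42.2 and 65.8 CPM at 0 h, and 59.8 and 60.3 CPM in WT, against 71.3 and 77.2 CPM at 0 h, a difference of 0.82 ± 0.37 (adjusted p = 0.822). Ubtf at 72 h had 391 and 467 CPM in KO, against 329 and 389 CPM at 0 h, and 294 and 287 CPM in WT, against 371 and 296 CPM at 0 h, a difference of 0.42 ± 0.26 (adjusted p = 0.924).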

How the results depend on the processing

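Each count of the 40 genes past the threshold was recomputed. The counts below stand without the share of all genes, which also moved with the setting. As the mean over times it was 37.5% with the settings used above, 19.6% with no filter, 43.1% with the block and 42.6% with recovered reads. For WT at 120 h against 0 h it was 28.9%, 13.5%, 35.6% and 32.6% in the same order. By itself, such a count is not a result about the 40 genes. No log2 fold change of a single gene that passed changed sign: 632 values kept their side of the threshold and 270 no longer passed, and the cause was not tested. Of the recomputed medians over the 40 genes, 234 stayed close to the reported value and 20 moved. Counts moved by more than 1.5 times as follows, for the alternatives planned for each comparison and the WT tables left out. With no filter, KO against WT gave 1 at 18 h and 2 at 72 h; WT against 0 h gave 0 at 12, 18 and 72 h, 1 at 48 h, 2 at 96 h and 4 at 120 h; KO against 0 h gave 1 at 12, 18 and 120 h and 2 at 48 h; 120 h against 18 h gave 5 in KO and 1 in WT; the KO course gave 5 and the interaction 2. With the replicate block, whose numbers pair KO libraries only in part and do not pair KO with WT libraries, KO against WT gave 3, 4, 1, 4, 3 and 9 at 12, 18, 48, 72, 96 and 120 h. With it KO against 0 h gave 4 at 18 h, 3 at 48 h and 1 at 96 h, WT 3 at 12 h, 4 at 48 h and 11 at 120 h, 120 h against 18 h gave 7 in KO and 5 in WT, and the courses 7 in KO and 14 in WT. Same-numbered KO deviations correlated at -0.138 to 0.567, and those of KO with WT of the same time at -0.129 to 0.043. DESeq2's test gave 2 for KO against WT at 96 h, 4 for KO 120 h against 18 h and 3 for the KO course; DESeq2 size factors gave 1 for WT at 72 h and 2 for the KO course; library totals gave 1 for WT at 72 h and 1 for KO at 18 h. Without the shallow libraries KO against WT gave 0 at 72 and 96 h and KO 120 h against 18 h gave 1. With recovered reads KO against WT gave 3 at 72 h and 0 at 96 h, and KO at 96 h against 0 h gave 1. Without the first table's WT libraries the genotype mean gave 7 and KO against WT at 96 h gave 0. Without the second table's, KO against WT gave 1, 3, 3, 1, 3 and 3 at 0 to 96 h. Over time, leaving out the first table's WT libraries gave 0 for WT at 12, 18, 48 and 72 h, 4 at 120 h and 4 for the WT course, and leaving out the second's gave 1 at 18, 48 and 72 h, 4 at 120 h, 1 for 120 h against 18 h and 2 for the WT course. Either also changed the counts of KO, to 5 for 120 h against 18 h and 3 for the course, and to 1 (first) and 3 (second) at 48 h. WT at 72 h gave 1 without the shallow libraries.

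Leaving out 1 library, with the lone library of its group assumed to vary like the other groups, gave 8 to 18 for the genotype mean. KO against WT then gave 0 to 0 at 0, 12, 18, 48 and 72 h, 0 to 3 at 96 h and 1 to 6 at 120 h. KO against 0 h gave 0 to 1 at 12 and 18 h and 0 to 0 later, and WT 0 to 2 at 12 h, 0 to 1 at 18, 48 and 72 h, 1 to 5 at 96 h and 3 to 6 at 120 h. The 120 h against 18 h counts were 0 to 3 in KO and 1 to 2 in WT, the courses 1 to 3 in KO and 3 to 11 in WT, and the interaction 0 to 0. With 2 libraries per group and the split between the WT libraries of the count tables, differences as small as the medians given here cannot be told apart from differences between libraries.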
